A study of Mus musculus with 6 samples.

Results

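Akap12 and Pde4b are 2 of 149 genes in the authors' list of those changed by trimethylamine N-oxide (TMAO) in the reperfused mouse heart. Both were taken from that deposited table by their gene symbols, and their read counts and FPKM values (fragments per kilobase of transcript, scaled to the mapped total) were read in all 6 libraries. They were chosen because they are in a list selected on this very comparison, so their difference between groups is described below and not tested.

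The TMAO+IR group held 3 libraries from hearts of male C57BL/6 mice that drank water with 0.12% TMAO for 4 weeks before surgery and throughout it. The IR group held 3 libraries from such mice without TMAO. In both groups, which are labelled wild type, a ligature closed the left anterior descending coronary artery for 45 min (ischaemia) and was then released for 24 h (reperfusion), and RNA came from the injured region. The study asked how TMAO preconditioning changes gene expression there. No unoperated heart is part of the series, the ages of the mice are not stated, and the labels do not say whether each library came from a separate animal.

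Cyclic AMP (cAMP) is made by adenylyl cyclases when receptors such as the beta-adrenergic receptors are stimulated. It activates protein kinase A (PKA), which in cardiomyocytes phosphorylates calcium-handling and contractile proteins and so raises the rate and force of the beat. The signal is kept local by A-kinase anchoring proteins, which tether PKA near its substrates, and is ended by phosphodiesterases, which hydrolyse cAMP. Akap12, also called gravin or SSeCKS, is a large scaffold that binds PKA, protein kinase C, calmodulin and the beta2-adrenergic receptor. Pde4b is a cAMP-specific phosphodiesterase of the rolipram-sensitive PDE4 family. In mouse cardiomyocytes it limits the beta-adrenergic stimulation of L-type calcium channels, and in leukocytes it takes part in inflammatory signalling.

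Akap12 (ENSMUSG00000038587) lies on the plus strand of chromosome 10 at 4266380 to 4359470 of the GRCm38 mouse genome, with 3 transcripts in GENCODE release M21. Pde4b (ENSMUSG00000028525) lies on the plus strand of chromosome 4 at 102087543 to 102607259, with 13 transcripts. Both genes make proteins that differ at the start, and the first 60 coding bases of the main forms show this. The capitals mark the start codon, all sequences read 5′ to 3′, and all are on the plus strand of GRCm38.
Akap12-201 (chr10:4266519-4266578): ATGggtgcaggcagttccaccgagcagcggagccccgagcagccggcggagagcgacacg
Akap12-202 (chr10:4353192-4353251): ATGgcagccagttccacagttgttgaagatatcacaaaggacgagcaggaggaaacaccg
Pde4b-208 (chr4:102188685-102194853, spliced): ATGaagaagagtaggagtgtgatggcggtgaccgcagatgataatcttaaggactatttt
Pde4b-207 (chr4:102255221-102255280): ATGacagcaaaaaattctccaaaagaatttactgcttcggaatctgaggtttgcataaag
Pde4b-203 (chr4:102570648-102570707): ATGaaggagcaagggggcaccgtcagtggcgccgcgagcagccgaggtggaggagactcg
Akap12-201 encodes 1684 amino acids, and Akap12-202 starts at a later codon of the same reading frame and encodes 1579. Pde4b-208 and Pde4b-207, of 736 and 721 amino acids, are long forms of the enzyme, which carry a regulatory region that PKA phosphorylates. Pde4b-203, of 564 amino acids, is a short form without that phosphorylated region. It shared its last 1579 coding bases with Pde4b-207, and Pde4b-208 shared the last 1932.

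The libraries held between 18370943 (TMAO+IR replicate 1) and 22442171 (IR replicate 3) fragments, as recovered from the ratio of counts to FPKM. The listed genes took 0.678% to 1.08% of the fragments in TMAO+IR and 0.330% to 0.505% in IR. One library stood apart in the transcript lengths that the quantification used. Among 74 listed genes with several annotated transcripts and at least 1 FPKM in every library, IR replicate 3 lay farthest from the gene's median length in 33, against 4 to 12 genes for each of the other libraries. Values without this library are given beside the log2 differences of the members, their ratio and their implied lengths. The likeness ranks and the FPKM levels of other genes include it.

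Akap12 was more abundant in every TMAO+IR library than in any IR library. It had 18544, 22540 and 14819 counts in TMAO+IR replicates 1 to 3, against 7394, 9916 and 6358 counts in IR replicates 1 to 3. In CPM, the count scaled to 1000000 library fragments, this was 1009, 1047 and 712 in TMAO+IR and 358, 451 and 283 in IR. The groups did not overlap, and the lowest TMAO+IR library stood 1.58-fold above the highest IR library. On the FPKM scale, which allows levels to be compared between genes, Akap12 measured 168.43, 174.89 and 118.9 in TMAO+IR, with a mean of 154 ± 30.6 (SD, n = 3). In IR it measured 59.64, 75.23 and 47.52, with a mean of 60.8 ± 13.9 (SD, n = 3). Akap12 ranked 2 among the 149 listed genes by mean FPKM in TMAO+IR and 3 in IR, so it is one of the most highly expressed genes of the list.

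The geometric mean of Akap12 CPM was 2.54-fold higher in TMAO+IR than in IR, a difference of 1.35 ± 0.26 on the log2 scale (SE, n = 3 per group). Without IR replicate 3 the log2 difference was 1.18. In the authors' deposited table the log2 fold change of Akap12 was 1.34 with a false discovery rate (FDR) of 3.18e-06, the 8th smallest p-value of the list. The ratio of FDR to p in that table puts it at rank 8 of about 12721 genes tested by the authors. The spread within groups was 19.9% of the mean in TMAO+IR and 23.1% in IR (coefficient of variation of CPM).

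Pde4b was also higher in every TMAO+IR library than in any IR library, with a narrower gap. It had 4297, 5135 and 3333 counts in TMAO+IR replicates 1 to 3, against 1888, 3008 and 1993 counts in IR replicates 1 to 3. In CPM this was 234, 238 and 160.04 in TMAO+IR and 91.3, 137 and 88.8 in IR. The lowest TMAO+IR library stood 1.17-fold above the highest IR library, which was IR replicate 2. Pde4b measured 73.91, 76.67 and 50.89 FPKM in TMAO+IR, with a mean of 67.2 ± 14.2 (SD, n = 3). In IR it measured 29.99, 43.38 and 24.98 FPKM, with a mean of 32.8 ± 9.51 (SD, n = 3). On this scale it ranked 11 of the listed genes in both groups.

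The geometric mean of Pde4b CPM was 2.004-fold higher in TMAO+IR than in IR, or 1.003 ± 0.28 on the log2 scale (SE, n = 3 per group), but with scaling inside the list by TMM the value was -0.033 and with DESeq2 size factors -0.084. Those scalings centre a list that was selected for its change and lowered it as a whole by 1.04 and 1.09. Leaving out IR replicate 3 gave 0.89, and leaving out IR replicate 2, the library nearest to TMAO+IR, gave 1.20. In the authors' deposited table the log2 fold change of Pde4b was 1.03 and its FDR 0.00494. By p-value it stood 57th in the list and at most at about rank 110 of the genes tested. The smallest upward log2 fold change in the authors' deposited table was 1.0012 (Cyp1b1), and only 10 of the 122 higher genes had a smaller one than Pde4b. Runx1 (1.033) and Ch25h (1.037) stood next to it in the authors' deposited table. Genes just below the limit were not analysed here.

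**Figure D1:**
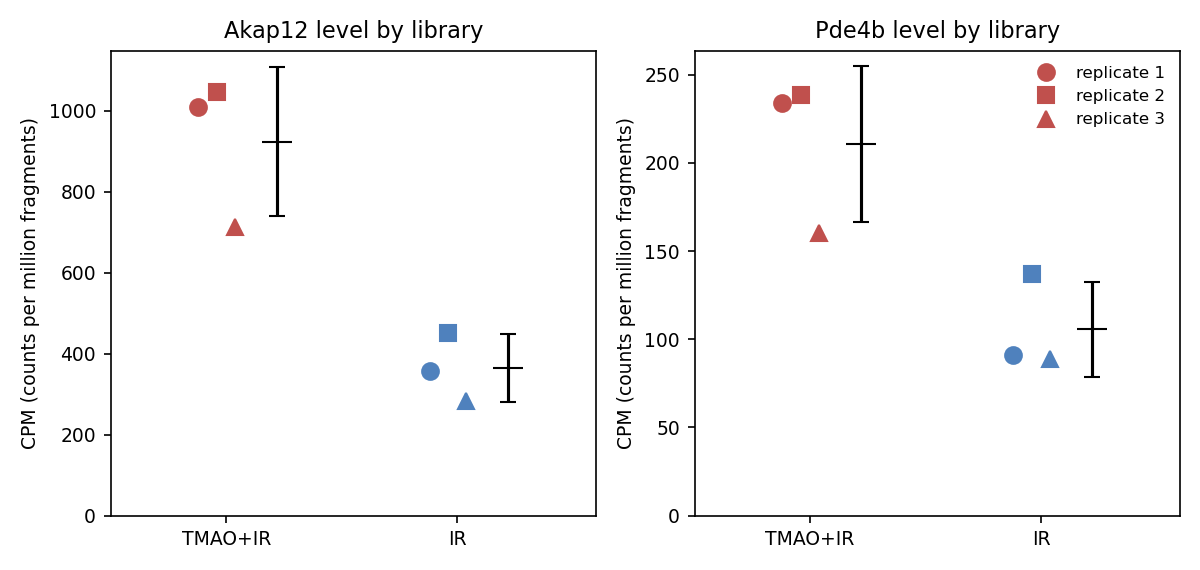
CPM (vertical axes, starting at 0) of Akap12 (left) and Pde4b (right) in the 3 TMAO+IR and 3 IR libraries, with the mean and SD of each group beside the points. The groups do not overlap in either gene, with a 1.58-fold gap for Akap12 and a 1.17-fold gap for Pde4b.

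These values have to be read against the way the list was made. Of about 12721 genes tested, the authors listed 122 as higher, or 0.959%, and both members belong to these by choice. CPM of the groups did not overlap, with TMAO+IR higher, in 120 of the 149 listed genes, or 80.5%, so the lack of overlap in Akap12 and Pde4b is what most listed genes show. The median log2 difference of the higher genes was 1.22 over the 120 of them with counts in every library. Akap12 lay above this median and Pde4b below it. In bulk tissue, more cells of a type that expresses a gene and more RNA per cell cannot be told apart.

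**Figure D2:**
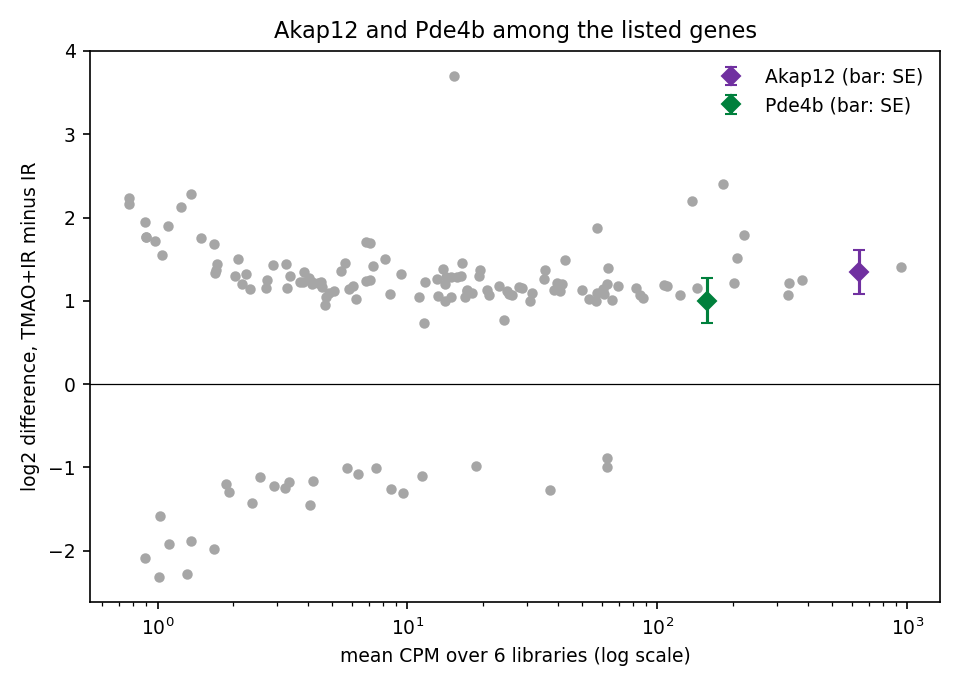
Log2 difference in CPM, TMAO+IR minus IR (vertical axis), against mean CPM over the 6 libraries (horizontal axis, log scale), for the 146 listed genes with counts in every library. Akap12 (1.35) and Pde4b (1.003, near 0 under scalings inside the list) are marked with their SE and sit among the most abundant genes; grey points are the other listed genes.

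Akap12 exceeded Pde4b by a larger factor in TMAO+IR than in IR. Per length, the ratio of Akap12 to Pde4b FPKM was 2.28, 2.28 and 2.34 in TMAO+IR replicates 1 to 3, against 1.99, 1.73 and 1.90 in IR replicates 1 to 3. The ratio varied little among TMAO+IR libraries (2.30 ± 0.03, SD, n = 3) and more among IR libraries (1.88 ± 0.13, SD, n = 3), and the groups did not overlap. From counts, the log2 ratio differed by 0.34 ± 0.09 between TMAO+IR and IR (SE, n = 3 per group). Since both genes were chosen on this contrast, the ratio is given without a test. Without IR replicate 1, the IR library with the highest ratio, the difference was 0.43, and without IR replicate 3 it was 0.29.

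Within each group the members followed the same order of libraries. By CPM, in TMAO+IR and in IR alike, replicate 2 was highest, replicate 1 next and replicate 3 lowest, for Akap12 and for Pde4b. The labels state no order or pairing for these numbers. Of the 149 listed genes, 60 had this order in TMAO+IR, 63 in IR and 28 in both. The share of all listed fragments had the same order in both groups. Akap12 made up 10.7%, 9.70% and 10.5% of listed counts in TMAO+IR and 10.1%, 8.94% and 8.59% in IR. Pde4b made up 2.48%, 2.21% and 2.36% in TMAO+IR, against 2.58%, 2.71% and 2.69% in IR. As a share of listed counts Pde4b was thus lower in each TMAO+IR library than in any IR library. This share is taken over genes selected for their change, most of them higher in TMAO+IR. A gene that rose less than their sum has a lower share by construction, so nothing more is read from it.

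Likeness of pattern was measured as the root mean square (RMS) difference over the 6 libraries between log2(FPKM + 0.1) values, each taken as the deviation from the group mean. Pde4b was the 2nd nearest of the 148 other listed genes to Akap12, at an RMS difference of 0.059, where the median over all listed genes was 0.262. Adamts1, a secreted metalloprotease that cleaves versican and aggrecan, was nearest to Akap12 at 0.049. Ppbp (0.075), the platelet basic protein of the CXC chemokine family, Cxcl5 (0.085), a neutrophil attractant, and Nlrc5 (0.086), a transactivator of MHC class I genes, came next. Nearest to Pde4b was Cxcl5 at 0.042, followed by Adamts1 (0.058), Akap12 (0.059), Nlrc5 (0.065) and Adamts4 (0.096), another aggrecan-cleaving protease. With CPM in place of FPKM, the RMS difference between Akap12 and Pde4b was 0.093 and each ranked 5 for the other.

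**Figure D3:**
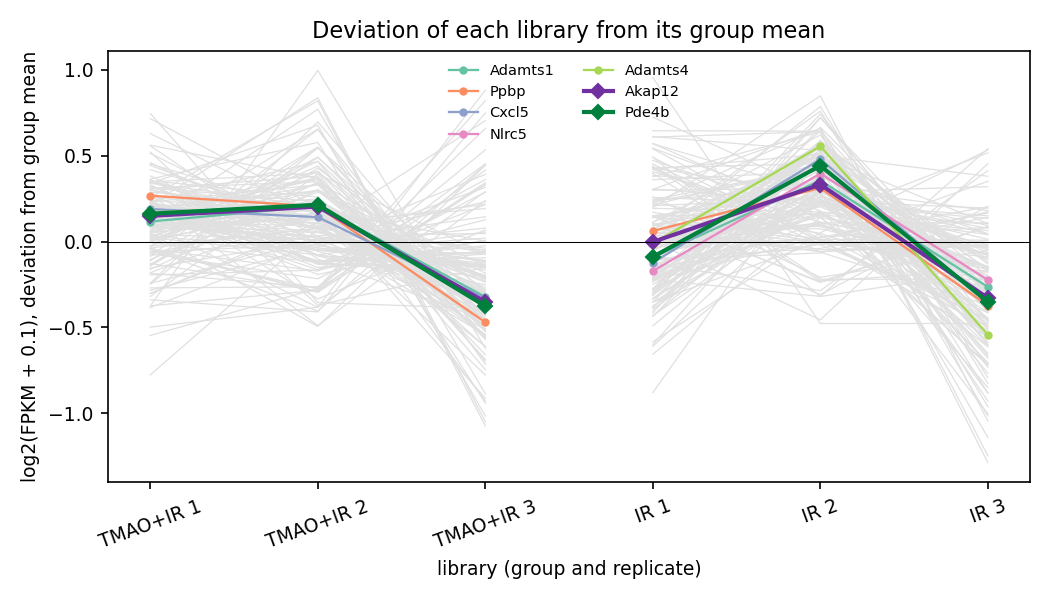
Deviation of log2(FPKM + 0.1) from the group mean (vertical axis) in each library (horizontal axis), for Akap12, Pde4b, the 5 other genes nearest to either of them and, in grey, all listed genes. Lines join the values of 1 gene and imply no order of libraries; Akap12 and Pde4b stay within an RMS of 0.059 of each other.

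When the group difference itself was kept in the pattern, the members lay farther apart. This follows from the measure, since their log2 differences between groups were not equal. Deviations from the mean of all 6 libraries placed Pde4b 11th from Akap12 and Akap12 14th from Pde4b, at an RMS difference of 0.160. The median over all listed genes was then 0.312 from Akap12 and 0.314 from Pde4b. The ranks of the members depend on the scale, with 4th and 20th from log2(FPKM + 1) and 27th and 23rd from log2(CPM + 0.1). The nearest genes to Akap12 were then Herc6 (0.110), an interferon-induced ubiquitin ligase of the mouse, Nlrc5 (0.117), Ppbp (0.121), Cxcl5 (0.132) and the monocyte chemokine receptor gene Ccr2 (0.142). The nearest genes to Pde4b were Adamts1 (0.059), Cxcl5 (0.063), Adamts4 (0.096), Rell1 (0.110), a relative of the RELT receptor, and Ppbp (0.113). This whole pattern includes the difference on which the list was made.

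The counts and FPKM together also carry information on transcript forms. It is not independent of the choice of genes, since the authors' fold change is a ratio of FPKM means, into which length enters, and it is given without a test. Counts divided by FPKM and library size give the transcript length over which the authors' quantification spread the fragments. For 12 listed genes with a single annotated transcript this length varied by at most 0.14% (coefficient of variation). For Akap12 it was 5993, 5985 and 5984 bp in TMAO+IR replicates 1 to 3, against 5995, 5994 and 5962 bp in IR replicates 1 to 3. The group means were 5987 ± 4.88 bp in TMAO+IR and 5984 ± 18.9 bp in IR (SD, n = 3), a difference of 3.89 bp, smaller than the SD within IR. Without IR replicate 3 the difference was -7.00 bp, and each TMAO+IR library then lay below both remaining IR libraries. That order rests on 5993 against 5994 bp, a smaller gap than the 0.14% seen for single-transcript genes, so nothing is read from it. These lengths lie between that of Akap12-201, at 6195 bp, and those of Akap12-202 and Akap12-203, at 5931 and 5917 bp.

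If the gene value is the sum over the annotated transcripts, a length between these limits bounds the share of Akap12-201, the form with the longest protein. Its share of Akap12 FPKM lay between 20.2% and 27.4% over the TMAO+IR libraries. In IR replicates 1 and 2 it lay between 24.0% and 27.9%, and in IR replicate 3 between 11.7% and 16.1%. The ranges of TMAO+IR and of IR replicates 1 and 2 overlap. The error of the recovered library sizes is not part of these bounds, so no difference between groups is read from them. Under this assumption most of the Akap12 signal was assigned to the shorter transcripts in every library. These bounds assume the transcript lengths of GENCODE M21, and the release that the authors used is not stated.

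For Pde4b the implied length was 3165, 3110.2 and 3145 bp in TMAO+IR replicates 1 to 3, against 3044, 3153 and 3555 bp in IR replicates 1 to 3. IR replicate 3 was the highest, and the other 5 lay within a narrow band. The group means were 3140 ± 27.6 bp in TMAO+IR and 3251 ± 269 bp in IR (SD, n = 3). Their difference of -111 bp was smaller than the SD within IR and became 41.1 bp without IR replicate 3. Among the 74 genes with several transcripts, 29 varied more than Pde4b, whose coefficient of variation was 5.68%, against a median of 3.85%.

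Each of these lengths exceeds that of every annotated Pde4b transcript except Pde4b-207, which is 4304 bp long and has a 3′ untranslated region of 1920 bp. The next longest, Pde4b-208, is 3020 bp, and the short form Pde4b-203 is 2756 bp. As for Akap12, the gene value is taken here as the sum over the annotated transcripts, with the lengths of GENCODE M21. Some of the Pde4b signal was then assigned to Pde4b-207 in every library, in IR replicate 1 by only 3044 against 3020 bp. The smallest share that the lengths allow was 11.3%, 7.03% and 9.71% in TMAO+IR, against 1.87%, 10.4% and 41.7% in IR. The largest share was 70.2%, 68.8% and 69.7% in TMAO+IR, against 67.1%, 69.9% and 80.4% in IR, since the mix of the other 12 transcripts is not known. The ranges of all libraries overlap, so no difference in share is read from them. Pde4b-206, a shorter transcript of 1374 bp, has the same protein start as Pde4b-207, and the implied length does not tell which protein start or which 3′ end carried the reads. The ratio of mean CPM was 1.996-fold, so Pde4b stood at the 2-fold limit of the list by counts and above it by FPKM. The greater length in IR replicate 3 lowered the FPKM of Pde4b in that library relative to its count, which is why the log2 difference was 1.05 from FPKM and 1.003 from counts.

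**Figure D4:**
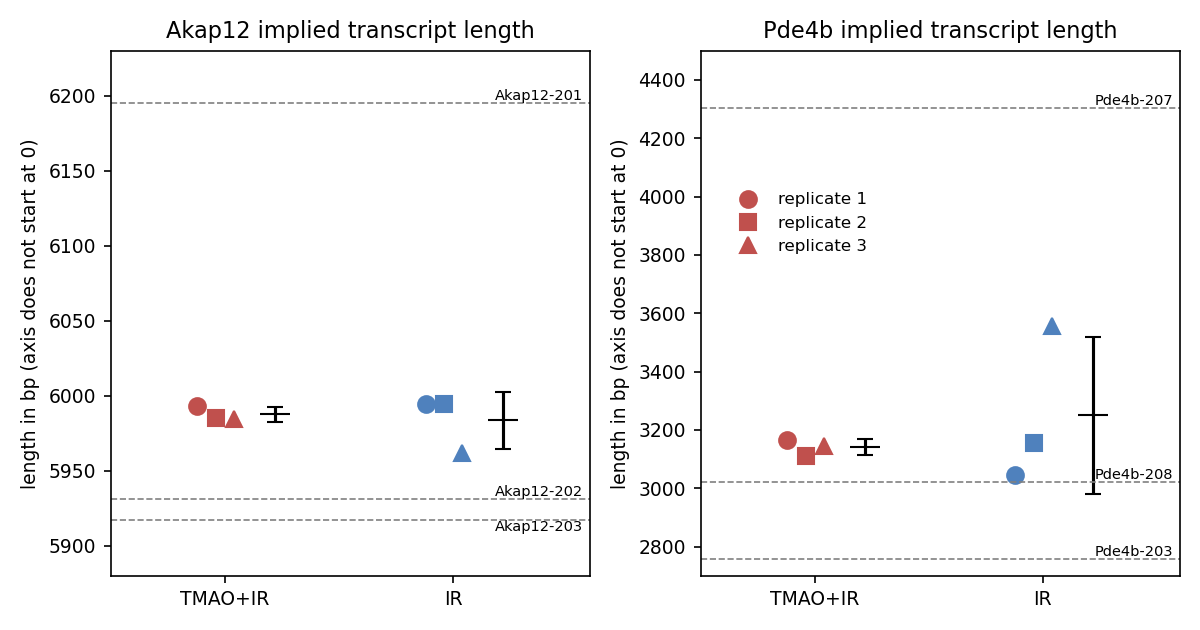
Transcript length in bp implied by counts, FPKM and library size (vertical axes, not starting at 0) for Akap12 (left) and Pde4b (right) in TMAO+IR and IR libraries, with mean and SD beside the points. Dashed lines are the GENCODE M21 transcripts that fall within each axis range; IR replicate 3 is the lowest library for Akap12 (5962 bp) and the highest for Pde4b (3555 bp).

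Pde4b has 4 start windows in the RefSeq promoter table (GRCm38.p6), and 1 of them held a half-site of the cAMP response element (CRE), the sequence bound by the PKA-activated factor CREB. The window is shown because CREB is a nuclear end point of the pathway that Pde4b limits. It spans 250 bases before and 50 bases from the RefSeq start site (102421555), on the plus strand. The capitals mark the half-site TGACG, read here on the opposite strand, 34 bases before that start. In GENCODE M21, Pde4b-205 already starts at 102421518, so by that annotation the half-site lies inside the transcript and not before it.
Pde4b (chr4:102421305-102421604): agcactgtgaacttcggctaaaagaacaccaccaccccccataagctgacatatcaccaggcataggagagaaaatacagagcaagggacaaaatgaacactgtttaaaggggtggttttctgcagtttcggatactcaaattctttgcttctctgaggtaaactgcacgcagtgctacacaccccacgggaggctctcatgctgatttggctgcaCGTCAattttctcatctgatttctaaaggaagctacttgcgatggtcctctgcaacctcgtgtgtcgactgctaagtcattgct
The half-site TGACG was found, on either strand, in 20.8% of the 32851 promoter windows of the table, the full element TGACGTCA, which contains it, in 1.79%, and the AP-1 site TGANTCA in 7.81%. No Pde4b window held the full element or an AP-1 site, and the windows at 102569810, 102587308 and 102589593 held none of the 3 motifs. None of the 4 windows covers the GENCODE M21 start of Pde4b-208 (102087543) or Pde4b-207 (102255003). The sequence around those starts was not searched. The match is a description of these letters and does not show that a factor binds there. The gene-level counts do not tell which of the starts was used.

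Other genes of the cAMP pathway were looked up in the same table. Of 133 genes in 7 lists covering cAMP synthesis, receptors, phosphodiesterases, effectors, anchoring proteins, PKA substrates and CREB-regulated genes, 9 (6.77%) were listed, beside 149 of about 12721 tested genes (1.17%) in all. These lists were drawn up with earlier results of these data known, and which of the 133 genes the authors tested is not known here, so nothing is read from the difference between these shares. All 9 were higher in TMAO+IR, as were 122 of all 149 listed genes. With the scalings inside the list 8 of the 9 stayed higher, and Pde4b was negative by less than its SE. Of the 120 higher genes with counts in every library, those scalings turned 11 (TMM) and 24 (DESeq2 size factors) lower. The median log2 difference of the 9 genes was 1.22, the same as that of all higher genes. Pde4b was the only listed member of 16 cAMP phosphodiesterases, and Akap12 the only one of 23 anchoring proteins. None of the 16 cyclase and G protein genes, 20 receptor genes, 16 PKA and other effector genes and 11 PKA substrate genes was listed. Unlisted genes were not analysed here, and their absence from it does not show equal levels.

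The remaining 7 came from the 32 genes of the CREB family and CREB-regulated list (21.9%), and many of them also respond to other signals. Fos, a subunit of AP-1, averaged 146 ± 52.3 FPKM in TMAO+IR and 51.2 ± 16.5 in IR (SD, n = 3 each), a log2 difference of 1.51 ± 0.42 (SE). Il6, an inflammatory cytokine gene, averaged 48.0 ± 4.45 FPKM in TMAO+IR and 21.3 ± 2.59 in IR (SD, n = 3 each). Ptgs2, which encodes the inducible cyclooxygenase of prostaglandin synthesis, averaged 11.1 ± 2.07 FPKM in TMAO+IR and 4.76 ± 2.38 in IR (SD, n = 3 each). The orphan receptor genes Nr4a2 and Nr4a3, Egr1 and Thbs1 had log2 differences of 1.12, 1.20, 1.22 and 1.40. In the authors' deposited annotation, the KEGG cAMP signalling pathway held 3 listed genes, Pde4b, Fos and Jun, all higher in TMAO+IR with the recovered library sizes. Of all 149 listed genes 122 were higher, and the list holds 1.17% of about 12721 tested genes. How many tested genes belong to the pathway is not known here, so nothing is read from its count. Akap12 was the only listed gene annotated there with protein kinase A binding, and Pde4b the only one with cAMP phosphodiesterase activity.

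Akap12 is expressed by fibroblasts, endothelial and smooth muscle cells, and Pde4b by leukocytes as well as heart muscle, so markers of these cells were looked up. Of 85 marker genes of 8 cell types, 5 (5.88%) were listed, beside the 1.17% of all tested genes, and nothing is read from that difference for the same reasons. None of the 10 fibroblast, 10 endothelial, 10 smooth muscle and pericyte, 8 mesothelial and 10 lymphocyte markers was in the list. Of 13 neutrophil markers, Mmp8 and Slfn4 were listed, and their summed level was 12.2 to 14.6 FPKM in TMAO+IR and 4.40 to 8.06 FPKM in IR. Of 12 macrophage and monocyte markers, Ccr2 and Chil3 were listed, with a summed level of 2.77 to 6.11 FPKM in TMAO+IR and 1.06 to 1.83 FPKM in IR. Of 12 cardiomyocyte markers only Myh7, the slow myosin heavy chain, was listed, at 27.5 to 56.5 FPKM in TMAO+IR and 6.29 to 12.5 FPKM in IR. No listed marker was at 0 in any library. The part of these cells in the levels of Akap12 and Pde4b was not tested, and the markers that define the heart as a tissue, apart from Myh7, were not analysed here.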

How the data were processed

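Poly(A)-selected RNA was sequenced, per the labels' protocols. Per the submitters' processing notes the build was GRCm38 and the tools were HISAT2, StringTie 1.3.1, Bowtie2 2.2.8, edgeR, DESeq2 and fastp 0.18.0, with no role given for each. The authors deposited 1 table of 149 selected genes with unnormalized counts, FPKM values to 2 decimals and group means of FPKM per library. The log2 fold change in the deposited table is the log2 ratio of these means, and the p-value and FDR are the authors' own, from a test that no source used here names. Columns named T-IR were matched to TMAO+IR, the only group besides IR.

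Library sizes were recovered from count over FPKM in the 86 genes that reached 1 FPKM in all libraries, and set to scale by 12 single-transcript genes of GENCODE M21. All 149 gene IDs matched it with the same symbol. Levels are counts divided by these sizes. Differences are between mean log2 values, without pseudocount or filter, and SE is from the spread within groups. edgeR 4.0.16 and DESeq2 1.42.0 (R 4.3.3) served as alternatives for the fold change only, checked on simulated data. A permutation test planned for implied lengths is not reported, since length enters the FPKM behind the authors' fold change. No source names separate animals, so errors measure only the spread between libraries, which may be technical.

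The members and gene lists were chosen with earlier results of these data known. Named genes are the members, the 5 nearest genes to each by either pattern, and listed genes of the cAMP and marker lists; Jun, Cyp1b1, Runx1 and Ch25h were added after their values were seen. RefSeq windows were found for Pde4b (4); Akap12 is missing in that table.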

Additional observations from a re-analysis of the deposited data

How the results depend on the processing

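Most alternatives left the differences of Akap12 and Pde4b in place. FPKM, both fits over the listed genes (edgeR and DESeq2), library sizes from genes with at least 5 FPKM or from single-transcript genes alone, and a pseudocount of 1 moved neither by more than the spread between libraries; the sizes from single-transcript genes, and all alternatives for the ratio of the genes, were chosen after seeing the data. Scaling inside the list moved Akap12 to a log2 difference of 0.31 (TMM) and 0.26 (DESeq2 size factors), because it centres a selected list. It took Pde4b to -0.033 (SE 0.090) and -0.084 (SE 0.091), each smaller in size than its SE. It also turned 11 and 24 of 120 higher genes lower. Leaving out 1 library gave 1.18 to 1.52 for Akap12, 0.89 to 1.20 for Pde4b, 0.29 to 0.43 for their log2 ratio, 145 to 149 for genes without overlap and 0.024 to 0.064 for the RMS difference of the members. The difference in implied length ran from -7.00 to 9.35 bp for Akap12 and from -214 to 41.1 bp for Pde4b, and both changed sign without IR replicate 3. With a mean of at least 50 counts, 113 genes had no overlap. With the replicate block the log2 differences stayed at 1.35 (SE 0.08) and 1.003 (SE 0.18), that of the ratio at 0.34 and those of length at 3.89 and -111 bp. The labels name no pairs, and deviations of same-numbered libraries over 117 genes had correlations of -0.24, 0.28 and -0.02. These correlations leave out a shift shared by all genes, so they cannot decide whether the numbers pair the libraries. Of the 5 nearest genes to each member, log2(FPKM + 1) shared 2 to 4 with the scale used and CPM shared 3. With 3 libraries a group, the spread within groups limits every difference given here.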
